A study of Mus musculus with 2 samples.

Results

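Divergent protein-coding promoter pairs are pairs of genes on opposite strands that are transcribed away from each other from neighbouring start sites. On the mouse autosomes of build mm9, 798 such pairs were found whose transcription start sites (TSSs) lay 0 to 1000 bases apart, with 1 TSS per gene, the one shared by most of its protein-coding transcripts. They held 1589 genes of the 21410 protein-coding genes with an autosomal TSS, and 7 of these genes belonged to more than 1 pair. The comparison group was the 16369 unpaired TSSs, which had no opposite-strand TSS of any annotated transcript within 5 kb. The groups most like the pairs were 570 coding TSSs with a divergent non-coding transcript within 1000 bases and 813 TSSs whose nearest opposite coding TSS lay over 1000 to 5000 bases away.

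Chromatin immunoprecipitation followed by sequencing (ChIP-seq) was performed in mouse embryonic stem cells (mESCs) labelled wild type, E14, passage 26, of the 129P2/OlaHsd background. 1 library was made with an antibody against Msl1 and 1 with an antibody against Nsl1, from cells kept without feeders for a single passage. The study mapped both proteins to learn where the complexes they belong to sit in the genome. Since each antibody had 1 library, no difference between them has a replicate check, and the intervals given are 95% exact Poisson or binomial intervals, which cover counting error only, or order-statistic intervals of a median over TSSs.

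Msl1 and Nsl1 are scaffold subunits of the MSL and NSL complexes, which share Mof, an acetyltransferase for histone H4. A divergent promoter places the start sites of both genes around a single nucleosome-depleted region, from which polymerases leave in opposite directions. Such promoters are frequent in mammals, mostly lie in CpG islands, lack TATA boxes, and are known for housekeeping genes, DNA repair genes and genes for mitochondrial proteins.

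Sequencing gave 23888517 reads of 50 bases for Msl1 and 26084098 of 36 bases for Nsl1, and 18.3% and 4.56% of the nuclear reads repeated a position and strand. After repeats were removed, 18954995 Msl1 and 24235463 Nsl1 autosomal reads were left and moved to the middle of their fragments, estimated at 205 and 135 bases. A level is the read density of a window, in reads per kb, divided by the density of that library in the flanks 5 to 50 kb away, so that 1 is the local background. The libraries were made with different kits and read lengths, and no Input library was used here, so that easier recovery of GC-rich DNA cannot be told apart from binding. At the TSSs of the pluripotency genes Pou5f1 and Nanog, Msl1 levels were 5.19 (62 reads) and 1.99 (36 reads), and Nsl1 levels were 1.32 (17 reads) and 2.35 (34 reads). RNA, which would show the cell type directly, was not analysed here.

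The pairs were compact and rich in CpG. Their TSSs lay a median of 157 bases apart (quartiles 80 and 304, range 1 to 996). In 66.9% of the pairs both TSSs were GC- and CpG-rich, here taken as at least 55% GC and a CpG observed/expected ratio of at least 0.6 within 500 bases. Among single TSSs, 73.5% of the paired, 34.2% of the unpaired and 39.5% of all TSSs met this. Every autosome held pairs, with the most, 70, on chromosome 11. 5 symbol pairs, Rad17/Taf9 among them, were listed more than once because the annotation holds 2 entries for 1 of the genes, and each listing was counted.

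The stretches between the TSSs were taken for 15 pairs that stand at the ends of the Msl1 and Nsl1 levels or of their ratio, or are well known. An exon lay in 2, that of the highest Nsl1 pair 1810024B03Rik/Snrnp200 among them, and 5 were shorter than 30 or longer than 300 bases. The other 8 stretches are printed, so that their base composition can be read. These are the plus strand of mm9, 5′ to 3′, from the base after the TSS of the minus-strand gene, named first, to the base before the TSS of the plus-strand gene. None overlaps an annotated exon. Capitals mark exact matches, on either strand, of any of the 8 motifs searched, of which GGGCGG, the GC box, and the CCAAT box occur most. The E-box CACGTG and the TATA box TATAAA were the others found. On the plus strand a motif may stand as its reverse complement.
Fpgt/Lrriq3, chr3:154756343-154756397: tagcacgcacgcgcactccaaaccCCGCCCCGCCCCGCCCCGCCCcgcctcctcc
Mdh1b/Fastkd2, chr1:63776893-63777187: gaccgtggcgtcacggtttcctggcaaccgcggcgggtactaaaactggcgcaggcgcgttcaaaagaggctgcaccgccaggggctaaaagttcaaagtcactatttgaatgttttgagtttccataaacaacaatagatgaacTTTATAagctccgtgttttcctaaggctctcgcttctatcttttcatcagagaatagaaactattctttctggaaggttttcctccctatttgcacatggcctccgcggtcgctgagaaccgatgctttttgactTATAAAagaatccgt
Noc4l/Ddx51, chr5:111082437-111082469: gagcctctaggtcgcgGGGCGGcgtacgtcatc
Hnrnpd/4930524J08Rik, chr5:100407958-100408079: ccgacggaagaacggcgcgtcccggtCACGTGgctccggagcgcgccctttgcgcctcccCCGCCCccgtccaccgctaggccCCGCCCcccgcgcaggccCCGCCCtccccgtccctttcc
Psma7/Ss18l1, chr2:179777139-179777213: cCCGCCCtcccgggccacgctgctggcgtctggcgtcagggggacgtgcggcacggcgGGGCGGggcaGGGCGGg
Wrap53/Trp53, chr11:69393758-69393860: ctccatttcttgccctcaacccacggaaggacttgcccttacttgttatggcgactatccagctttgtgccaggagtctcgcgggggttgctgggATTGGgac
Mrps12/Sars2, chr7:29526840-29527009: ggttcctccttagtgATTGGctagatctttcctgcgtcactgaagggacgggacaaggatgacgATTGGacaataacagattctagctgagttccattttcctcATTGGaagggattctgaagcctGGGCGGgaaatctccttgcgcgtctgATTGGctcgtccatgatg
Cox4nb/Cox4i1, chr8:123192013-123192189: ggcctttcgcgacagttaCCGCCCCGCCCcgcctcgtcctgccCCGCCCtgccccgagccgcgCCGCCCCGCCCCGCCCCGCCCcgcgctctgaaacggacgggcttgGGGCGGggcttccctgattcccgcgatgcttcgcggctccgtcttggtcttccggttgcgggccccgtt

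Fpgt/Lrriq3 had the second highest Nsl1 level of all pairs and Mdh1b/Fastkd2 the lowest ratio of Msl1 to Nsl1, while Noc4l/Ddx51 and Hnrnpd/4930524J08Rik were among the 3 highest for Msl1 and Psma7/Ss18l1 had the highest ratio of Msl1 to Nsl1. GC made up 84.0% of the Psma7/Ss18l1 stretch, 79.5% of the Hnrnpd stretch and 69.7% of the Noc4l/Ddx51 stretch. It made up 46.1% between Mdh1b and Fastkd2, which held no GC box and 2 TATAAA matches. Between Fpgt and Lrriq3, however, GC was higher than in the Hnrnpd stretch. Among these few stretches GC thus did not divide pairs high for Msl1 from pairs high for Nsl1, which rests on the 55 bases between Fpgt and Lrriq3. Noc4l/Ddx51 was also high for Nsl1, at 14.3. Within 500 bases of the TSSs, GC was 72.5% for Psma7/Ss18l1, 71.8% for Hnrnpd/4930524J08Rik and 69.4% for Noc4l/Ddx51. It was 56.9% for Fpgt/Lrriq3 and 47.7% for Mdh1b/Fastkd2. The Fpgt/Lrriq3 stretch, with 4 overlapping GC box matches, held 0 reads in both libraries although 227 Nsl1 reads lay within 1000 bases downstream of its TSSs, and whether reads can be placed uniquely in it was not tested.

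Nsl1 was higher at paired than at unpaired TSSs. Within 500 bases of the TSS, the median Nsl1 level was 3.87 (95% interval 3.71 to 4.04, 1583 TSSs) at paired TSSs and 1.57 (1.56 to 1.59, 15927 TSSs) at unpaired TSSs. TSSs with a divergent non-coding transcript had a median of 2.41 (2.20 to 2.61), and those with a coding partner over 1000 to 5000 bases away had 1.72 (1.66 to 1.85), close to the 1.70 over all TSSs. Paired TSSs up to 1000 bases apart were thus the highest of these groups for Nsl1. In close pairs both windows share reads, so that TSSs of a pair are not independent and the intervals of these medians are too narrow.

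Msl1 was also higher at paired TSSs, by less. The median Msl1 level was 2.87 (2.77 to 2.95) at paired and 1.68 (1.66 to 1.71, 15888 TSSs) at unpaired TSSs, with 2.61 (2.49 to 2.79) at TSSs with a non-coding partner and 1.85 over all TSSs. A TSS was called enriched where the lower limit of its Poisson interval within 500 bases exceeded 2 times the local level. For Msl1, 24.2% of all 20893 TSSs tested were enriched, against 50.1% (47.6 to 52.6) of the paired and 20.05% (19.4 to 20.7) of the unpaired TSSs. For Nsl1, 25.5% of all 20931 TSSs tested were enriched, against 67.0% (64.6 to 69.3) of the paired and 19.8% (19.2 to 20.4) of the unpaired TSSs. Of the TSSs with a non-coding partner, 41.4% (37.3 to 45.5) were enriched for Msl1 and 41.9% (37.8 to 46.1) for Nsl1. The Msl1 share of paired TSSs depended on the rule, with 19.8% within 250 bases, 17.9% above 3 times and 77.4% against the level of the whole library, and stood above the unpaired share (11.2%, 6.48% and 35.4%) under each.

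Both TSSs were called enriched for Nsl1 in 500 of the 798 pairs and for Msl1 in 331, and in 272 pairs both TSSs were enriched in both libraries. Each TSS was called from its own window, and with a median TSS distance of 157 bases most windows of a pair largely share their reads. Calls at both TSSs of a close pair, here and below, are therefore not independent. Exactly 1 TSS was called in 68 pairs for Nsl1 and in 134 for Msl1. In 155 pairs no TSS was enriched in either library. Single TSSs enriched in both libraries made up 41.3% (38.9 to 43.8) of the paired and 9.23% (8.78 to 9.69) of the unpaired TSSs, and 12.8% of all TSSs. The share was 20.6% (17.3 to 24.2) at TSSs with a non-coding partner.

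Base composition moved with these values. Among GC- and CpG-rich TSSs alone, the median Nsl1 level was 4.08 (3.93 to 4.25, 1168 TSSs) at paired and 2.29 (2.25 to 2.35, 5569 TSSs) at unpaired TSSs, and 72.8% against 36.3% were enriched. The median Msl1 level in the same TSSs was 3.12 (3.04 to 3.18) against 2.79 (2.74 to 2.83), with 60.0% against 46.3% enriched. Between paired and unpaired rich TSSs the Nsl1 medians thus differed by a factor of 1.78, whereas the Msl1 medians differed by a factor of 1.12. Most of the paired windows hold both promoters of a pair. Fewer do in rich pairs over 400 to 1000 bases apart, a restriction chosen after the values were seen. There the medians were 2.67 (2.22 to 3.04) for Nsl1 and 2.96 (2.54 to 3.33) for Msl1. Both intervals overlap those of unpaired rich TSSs. Rich TSSs enriched for Msl1 and not for Nsl1 were the opposite case, with 10.4% (8.67 to 12.3) of the paired and 26% (24.9 to 27.2) of the unpaired ones.

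Downstream of the TSS, from 0 to 1000 bases, where the window of a pair's partner cannot overlap, Msl1 and Nsl1 parted. Reads spread from the partner's promoter can still fall in this window at close pairs. Among TSSs with a CpG ratio over 0.8, the median downstream Msl1 level was 3.24 (3.11 to 3.35, 684 TSSs) at paired and 3.74 (3.68 to 3.81, 2926 TSSs) at unpaired TSSs. With a CpG ratio of 0.6 to 0.8 it was 2.68 (2.57 to 2.80) against 3.14 (3.09 to 3.20). Nsl1 ran the other way in the same classes, with 2.54 (2.42 to 2.67) against 1.90 (1.86 to 1.94), and 2.51 (2.39 to 2.64) against 2.03 (2.0 to 2.08). Over all compositions the downstream Msl1 median was higher at paired TSSs, at 2.78 against 1.86, and at a CpG ratio of 0.3 to 0.6 the medians were 1.69 at both. Among TSSs that were not rich, paired TSSs had the higher downstream Msl1 median, at 1.88 (1.78 to 2.03) against 1.29 (1.27 to 1.31). These 2 groups are not matched in composition, with median CpG ratios of 0.595 at paired and 0.252 at unpaired TSSs. By class, the lower downstream Msl1 of paired TSSs was found over 0.6. Below 0.3 the medians were 0.883 (0.734 to 1.17) at paired and 1.04 (1.02 to 1.05) at unpaired TSSs, with intervals that overlap. Below a CpG ratio of 0.3 the Nsl1 medians within 500 bases were 1.20 (1.07 to 1.34, 43 TSSs) at paired and 1.14 (1.12 to 1.15) at unpaired TSSs. Of the 43 paired TSSs, 0 were enriched for either protein. An approximate limit of 3 over 43, not an exact binomial one, allows a share of up to 6.98%.

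**Figure D1:**
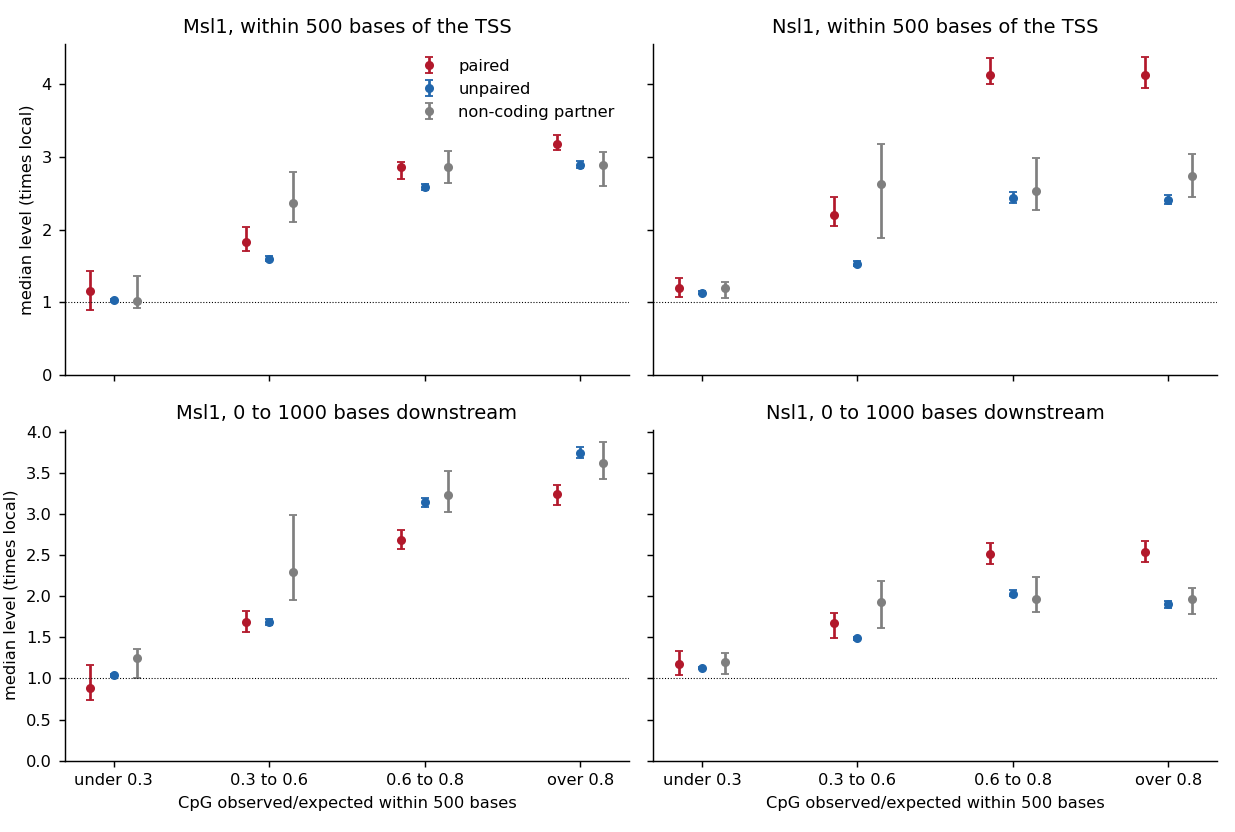
Median level of Msl1 (left) and Nsl1 (right) within 500 bases of the TSS (top) and 0 to 1000 bases downstream (bottom), in times the local level, by class of CpG observed/expected. Points are medians over TSSs and bars their 95% order-statistic intervals, in red for paired, blue for unpaired and grey for TSSs with a non-coding partner. Over a CpG ratio of 0.6, paired TSSs stood above unpaired TSSs for Nsl1 in both windows, and for Msl1 below them downstream.

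The profile of each protein around rich TSSs showed the same split. Aligned on the TSS with the gene to the right, Nsl1 peaked in the bin from 50 to 0 bases upstream, at 7.99 (7.79 to 8.19) for paired and 4.30 (4.24 to 4.37) for unpaired TSSs. Msl1 peaked 200 to 250 bases downstream, at 4.50 (4.35 to 4.66) for paired and 4.71 (4.63 to 4.78) for unpaired TSSs, and fell to 1.33 (1.27 to 1.39) at the paired TSS itself, over the bins on both sides of it. Upstream, where the partner gene of a pair begins, Msl1 reached 3.80 (3.66 to 3.95) at paired TSSs and 2.09 (2.04 to 2.14) at unpaired TSSs. From 500 to 2000 bases downstream the pooled read density was 0.550 times that of the first 500 bases downstream for Msl1 at rich paired TSSs and 0.622 times at rich unpaired TSSs. For Nsl1 these ratios were 0.286 and 0.437.

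**Figure D2:**
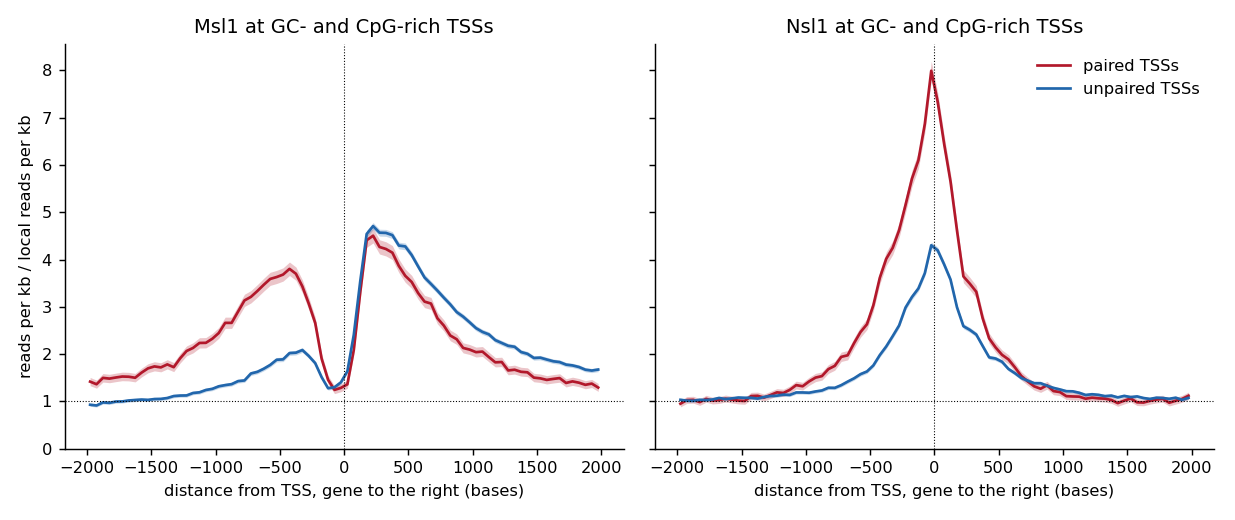
Pooled level in bins of 50 bases around GC- and CpG-rich TSSs, turned so that the gene runs to the right, for Msl1 (left) and Nsl1 (right). Red lines are paired and blue lines unpaired TSSs, with shaded 95% Poisson intervals. Msl1 dipped at the TSS and stood on both sides of it at pairs, and Nsl1 peaked at the TSS, at 7.99 for paired and 4.30 for unpaired TSSs.

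Between the TSSs of a pair, Nsl1 was high and Msl1 was low except in the widest pairs. Over the 701 pairs at least 50 bases apart with a testable local level, the pooled Nsl1 level strictly between the TSSs was 4.46 (4.38 to 4.55, 10912 reads), and the same lengths upstream of unpaired TSSs had 2.37. The pooled Msl1 level was 1.47 (1.42 to 1.52, 3378 reads), and the same lengths upstream of unpaired TSSs had 1.35. In rich pairs these Msl1 levels were 1.47 (1.40 to 1.54) and 1.52, so that the higher pooled level of pairs was not found there. The median over single pairs was 3.89 (3.51 to 4.23) for Nsl1 and 0.974 (0.863 to 1.06) for Msl1.

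The TSS distance changed both profiles. In pairs 50 to 100 bases apart the pooled Nsl1 level between the TSSs was 10.9 (10.4 to 11.4), and it was 5.95 (5.71 to 6.19) over 100 to 200 bases, 5.01 (4.84 to 5.18) over 200 to 400 and 2.71 (2.61 to 2.80) over 400 to 1000. The medians over single pairs were lower, at 7.08 (5.51 to 8.48), 4.24 (3.51 to 4.75), 3.80 (3.28 to 4.23) and 2.40 (2.03 to 2.78), in the same order. Msl1 between the TSSs was 1.29 (1.12 to 1.48), 1.10 (1.00 to 1.22), 1.12 (1.04 to 1.20) and 1.83 (1.75 to 1.91) in these classes, and the same lengths upstream of unpaired TSSs had 1.30, 1.25, 1.34 and 1.40. Msl1 thus stayed near the local background in pairs up to 400 bases apart and was highest in the widest, the one class above its unpaired value, with 2025 of the 3378 reads.

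Around the pair midpoint, Nsl1 formed a single summit in pairs up to 100 bases apart, with 11.7 (11.3 to 12.1) over the 100 bases at the midpoint. In pairs over 200 to 400 bases apart it had a summit on each side, of 5.87 (5.45 to 6.32) at 175 bases to the left and 6.41 (5.96 to 6.87) at 125 bases to the right, with 4.29 (4.03 to 4.56) at the midpoint. The median distance from midpoint to TSS in this class was 140 bases. Msl1 had a trough at the midpoint with a shoulder on each side, which moved outward with the TSS distance, from 225 bases on both sides in the closest pairs to 375 bases to the left and a plateau from about 300 to 550 bases to the right in pairs over 200 to 400 bases apart. In the latter the shoulders reached 4.66 (4.27 to 5.07) and 4.04 (3.68 to 4.42) and the trough 1.12 (0.984 to 1.26). In pairs over 400 bases apart Msl1 had a separate minimum of 1.21 (0.989 to 1.47) at 275 bases to the left and of 1.66 (1.40 to 1.96) at 275 bases to the right, with 2.25 (2.03 to 2.48) at the midpoint.

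**Figure D3:**
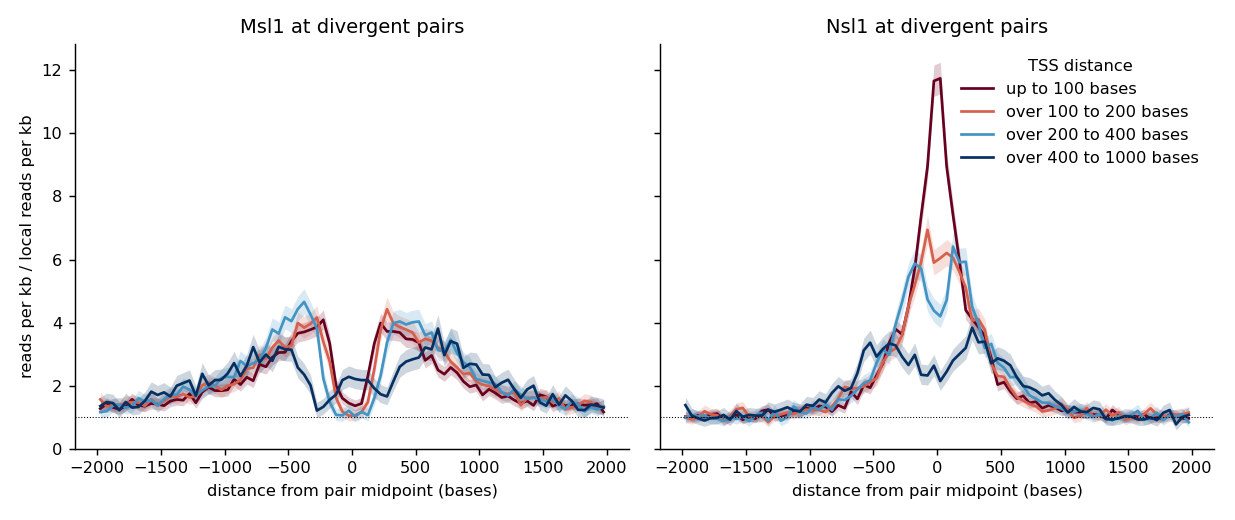
Pooled level in bins of 50 bases around the midpoint of divergent pairs, with the plus-strand gene to the right, for Msl1 (left) and Nsl1 (right). Line colours give the class of TSS distance and shading the 95% Poisson interval. Nsl1 at the midpoint was 11.7 in the closest pairs and 2.39 in the widest, where its highest bins lay to the sides, and the single Msl1 trough of the closer classes stood as a minimum on each side of the midpoint in the widest.

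The drop of Nsl1 with distance was found in the windows around single TSSs as well. Such a window takes in the partner TSS in pairs up to 500 bases apart and leaves it out in wider ones. The drop can therefore not be told apart from the reach of the window. With 1000 bases on each side, the Nsl1 ratio of the closest over the farthest class median was 1.42, against 2.025 with 500. The median Nsl1 level within 500 bases of a paired TSS was 4.69 (4.46 to 5.01) up to 100 bases, 3.92 (3.63 to 4.11) over 100 to 200, 3.72 (3.47 to 4.05) over 200 to 400 and 2.32 (2.14 to 2.62) over 400 to 1000 bases, the last nearer to the 1.72 of TSSs whose partner lay beyond 1000 bases. Neighbouring classes at 100 to 400 bases overlapped in their intervals. Downstream, Nsl1 fell from 2.83 (2.74 to 3.02) to 1.83 (1.70 to 1.96) between the first and the last class, and downstream Msl1 was 2.79 (2.67 to 2.90) and 2.57 (2.30 to 2.80). The share of rich pairs also fell, from 77.9% to 34.9%. In rich pairs alone, a restriction chosen after the values were seen, the Nsl1 medians of the first and last class were 4.69 (4.46 to 5.16) and 2.67 (2.22 to 3.04). Across 795 pairs, Spearman's rho of the level over the whole pair with the distance was -0.30 for Nsl1 and -0.13 for Msl1, a description over pairs that share a library. The window of a pair widens with the distance, so that the same reads give a lower level in a wider pair.

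A pair brings 2 promoters together, so the level between its TSSs was also set beside 2 unpaired rich profiles laid head to head at the same distances, with the background counted once, a comparison added after the values were seen. In rich pairs 50 to 100 bases apart, Nsl1 between the TSSs was 10.9 (10.3 to 11.4) against 7.29 for the 2 profiles, a ratio of 1.49. Over 100 to 200 bases the ratio was 0.891, over 200 to 400 bases 0.850 and over 400 to 1000 bases 0.702, so pooled Nsl1 stood above the sum of 2 unpaired promoters in the closest class and below it in the others. The median over single pairs of the closest class was 7.17 (5.46 to 8.58), below the pooled level. The 7.29 is a pooled value, so it cannot show whether the typical pair of this class has the excess. Msl1 between the TSSs was below the sum in the classes up to 400 bases, at 0.717, 0.643 and 0.568 of it, and reached 0.95 in the widest class. Downstream of the TSSs the same rich pairs had 0.877 times the Msl1 and 1.28 times the Nsl1 of unpaired rich TSSs. These factors are set against a single unpaired profile, not against the sum of 2. Reads spread from the partner's promoter can fall in the downstream window of a close pair, and how much they add was not tested. By class the Nsl1 factor was 1.48, 1.29, 1.14 and 0.997, so that the widest pairs had no excess, and the Msl1 factor lay between 0.824 and 0.925.

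**Figure D4:**
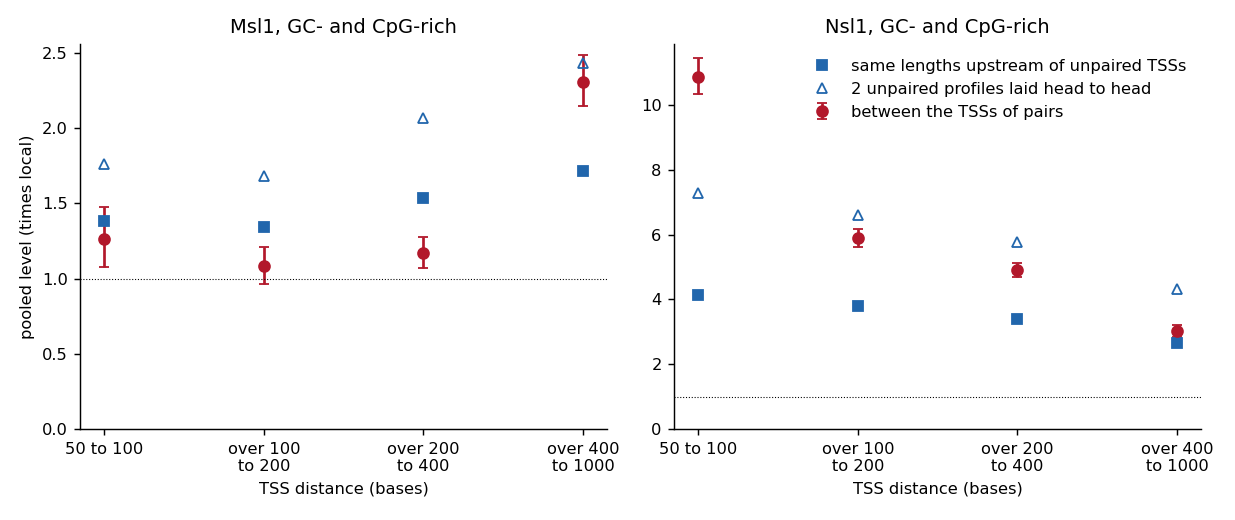
Pooled level between the TSSs of GC- and CpG-rich pairs (red, with 95% Poisson intervals) by TSS distance, for Msl1 (left) and Nsl1 (right). Squares are the same lengths upstream of unpaired rich TSSs and triangles 2 unpaired profiles laid head to head. Nsl1 in pairs 50 to 100 bases apart, at a pooled 10.9, lay above both, and Msl1 up to 400 bases lay below the triangles.

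In single pairs the trough could be counted. Among 317 pairs at least 200 bases apart, the Msl1 density between the TSSs was lower than that in the 500 bases downstream of each TSS in 223 pairs (70.3%, 65.0 to 75.3) and higher than both in 30 (9.46%, 6.48 to 13.2). As a background, the 300 bases upstream of unpaired TSSs were lower than the 500 bases on either side in 43.2% and higher in 21.1% for Msl1. For Nsl1 the density between was lower in 72 pairs (22.7%, 18.2 to 27.7) and higher in 131 (41.3%, 35.9 to 47.0), near the 25.6% and 38.1% of unpaired TSSs. The neighbours of a pair's stretch are both downstream of a TSS, whereas 1 neighbour of an unpaired window lies farther upstream, where Msl1 is lower, so that the Msl1 shares of pairs and unpaired TSSs are not like for like. Among rich TSSs the Msl1 shares were 79.9% of the pairs and 54.7% of unpaired TSSs.

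The 2 genes of a pair did not always carry equal amounts. A pair with at least 20 reads from 0 to 1000 bases downstream of its TSSs was called unequal where the binomial interval of the share of either side excluded 50%. For Msl1, 327 of 780 pairs (41.9%, 38.4 to 45.5) were unequal, and upstream against downstream windows of unpaired TSSs were unequal in 47.5%. For Nsl1, 265 of 785 pairs (33.8%, 30.5 to 37.2) were unequal, against 20.2% of unpaired TSSs. Among rich unpaired TSSs alone, the shares were 65.3% (64.0 to 66.5) for Msl1 and 23.8% (22.6 to 24.9) for Nsl1. A pair sets the sides of 2 genes against each other, whereas an unpaired TSS has its gene on the downstream side alone. That side was the larger in 5002 of 5222 unequal unpaired TSSs for Msl1 and in 1654 of 2626 for Nsl1. The unpaired shares are therefore not like for like with those of pairs. The windows of pairs held more reads, with medians of 71 against 45 for Msl1 and 65 against 39 for Nsl1, which makes a call easier at pairs. The side with more reads was that of the plus-strand gene in 174 pairs for Msl1 and in 144 for Nsl1, and that of the longer gene in 151 (46.2%, 40.7 to 51.7) and 113 (42.6%, 36.6 to 48.8). It was the side with the higher GC content in 259 of the 327 unequal pairs for Msl1 and in 148 of the 265 for Nsl1.

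Reads on both sides were related across 795 pairs, with Pearson's r of 0.44 for Msl1 and 0.54 for Nsl1 on log2(reads + 1), and with Spearman's rho of 0.25 and 0.42. Upstream and downstream reads of unpaired TSSs had higher values, with Pearson's r of 0.66 and 0.71 and Spearman's rho of 0.64 and 0.68. The 2 groups differ in composition, with 73.5% of paired and 34.2% of unpaired TSSs rich. Correlations among TSSs of matched composition or level were not computed, so these values are not like for like. Both sides of a pair share a library and a local depth. Of 123 pairs that were unequal in both libraries, 82 (66.7%, 57.6 to 74.9) had the same larger side and 41 had opposite larger sides, and these hold 81 and 40 distinct symbol pairs.

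The pairs with the most unequal sides were named by the lower limit of the larger share. For Msl1, Srsf7, a splicing factor, had 109 reads downstream of its TSS and its partner Ttc39d 17, and Wbp11, which also acts in splicing, had 58 against 7 of BC049715. Abca3, a lipid transporter of lung surfactant, had 46 Msl1 reads against 4 of Abca17, and Thnsl1 had 39 against 3 of Enkur. In these 4 pairs Msl1 thus lay almost wholly on the side of a single gene. Nsl1 was unequal toward the same side at Wbp11 (39 reads against 11) and Abca3 (33 against 13), and not unequal by the same rule at Thnsl1 (25 against 15). Nsl1 at Srsf7/Ttc39d was 30 and 25 reads, so that its interval for the share of the Ttc39d side (32.0 to 59.4%) included 50%.

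For Nsl1, Pcid2 had 205 reads downstream of its TSS against 34 of Cul4a, a scaffold of ubiquitin ligases, where Msl1 had 64 and 57. The whole window of this pair, to 500 bases outside both TSSs, held 49 Nsl1 reads (3.38, 2.50 to 4.47), so most of the 205 lay more than 500 bases into Pcid2. Fastkd2, which acts in mitochondrial RNA metabolism, had 109 Nsl1 reads against 16 of Mdh1b. Rchy1, a ubiquitin ligase, had 86 against 12 of Thap6, and Cct7, a subunit of the chaperonin that folds actin and tubulin, had 100 against 15 of 1700040I03Rik. At Cct7 Msl1 was larger on the same side, with 75 reads against 25. Dhx38, a helicase of the spliceosome, and Txnl4b were a case of opposite sides, with 52 Msl1 reads downstream of Dhx38 against 32 of Txnl4b, and 63 Nsl1 reads against 189.

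Levels over a whole pair, from 500 bases outside one TSS to 500 bases outside the other, ranged from 0 to 26.2 for Nsl1, with a median of 3.73 (3.54 to 3.86) and quartiles of 2.37 and 5.41. Msl1 ranged from 0 to 7.58, with a median of 3.0 (2.87 to 3.10) and quartiles of 2.21 and 3.83. A level of 5 or more was reached by 231 pairs (29.1%) for Nsl1 and by 51 (6.42%) for Msl1, and 23 and 31 pairs lay below the local background. Nsl1 thus spread over a wider range than Msl1.

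The highest Nsl1 level was at 1810024B03Rik/Snrnp200, with 392 Nsl1 reads (level 26.2, 23.7 to 28.9) and 55 Msl1 reads (4.39, 3.31 to 5.71). Snrnp200 encodes a helicase of the U5 spliceosomal particle. It was followed by Fpgt/Lrriq3 with 211 Nsl1 reads (20.9, 18.2 to 23.9) and 35 Msl1 reads, and by Nmnat1/Lzic with 262 (20, 17.6 to 22.6) and 46. Nmnat1 makes NAD in the nucleus. Their intervals overlapped with that of Aimp1/Tbck, at 220 Nsl1 reads (19.0, 16.6 to 21.7) and 45 Msl1 reads. Aimp1 is a scaffold of the complex of tRNA synthetases. Dffb/BC046331, with the nuclease that cuts DNA in apoptosis, Dhx38/Txnl4b, Supt7l/Slc4a1ap, with a subunit of the SAGA coactivator, and Tmem68/Tgs1, with the enzyme that trimethylates the cap of small nuclear RNAs, lay between 15.9 and 17.0. These 8 pairs were chosen by their Nsl1 level. Both TSSs were enriched for Msl1 as well in all 8, against 331 of the 798 pairs, and their Msl1 levels lay between 4.05 and 5.18. The calls at both TSSs of each of these pairs rest on overlapping windows.

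For Msl1 the highest level was at Noc4l/Ddx51, 2 genes of ribosome biogenesis, with 92 Msl1 reads (7.58, 6.11 to 9.29) and 203 Nsl1 reads (14.3, 12.4 to 16.4). Alkbh1/1810035L17Rik had 108 Msl1 reads (7.17, 5.88 to 8.66) and 69 Nsl1 reads. Hnrnpd/4930524J08Rik, with an RNA-binding protein that controls mRNA decay, had 78 Msl1 reads (6.61, 5.22 to 8.25) and 31 Nsl1 reads (2.51, 1.70 to 3.56). The other 5 were Slc39a7/Rxrb, a zinc transporter beside a retinoid X receptor, Actg1/0610009L18Rik, with cytoplasmic gamma actin, AA474408/Zfp143, Stk19/Dom3z and Erp44/Invs, with levels between 6.29 and 6.46. The intervals of all 8 overlapped, so their order is not resolved by these counts. Neither TSS of the Hnrnpd and Actg1 pairs was enriched for Nsl1, whereas both were for Noc4l/Ddx51, Stk19/Dom3z and Erp44/Invs, whose Nsl1 levels were over 10.

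Scaled by library depth, the Msl1 to Nsl1 read ratio over a pair was, at the median, 0.918 (0.866 to 0.964, 788 pairs). It rested on the window, with 0.612 within 250 bases and 1.18 within 1000 bases outside the TSSs. Within 500 bases of rich TSSs it was 0.862 (0.829 to 0.904) at paired and 1.28 (1.28 to 1.33) at unpaired TSSs, on a scale set by the depth of 2 libraries made differently. The highest ratios were at Psma7/Ss18l1, with 87 Msl1 and 26 Nsl1 reads (4.28, 2.73 to 6.91), Actg1/0610009L18Rik, with 117 and 36 (4.16, 2.84 to 6.22), Zbtb25/Zbtb1, a pair of zinc finger genes, with 128 and 44, and Rbmxrt/Slc10a7, with 106 and 37. Psma7 is a subunit of the proteasome core. The lowest were at Mdh1b/Fastkd2, with 21 Msl1 and 154 Nsl1 reads (0.174, 0.105 to 0.276), Zfpl1/Cdca5, with 26 and 190 (0.175, 0.111 to 0.264), and the Snrnp200 and Fpgt pairs. Cdca5 encodes sororin, which holds sister chromatids together. GC within 500 bases of the TSSs was 66.6 to 72.7% in the 4 highest and 47.7 to 57.1% in the 4 lowest pairs, and its part in the ratio was not tested.

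**Figure D5:**
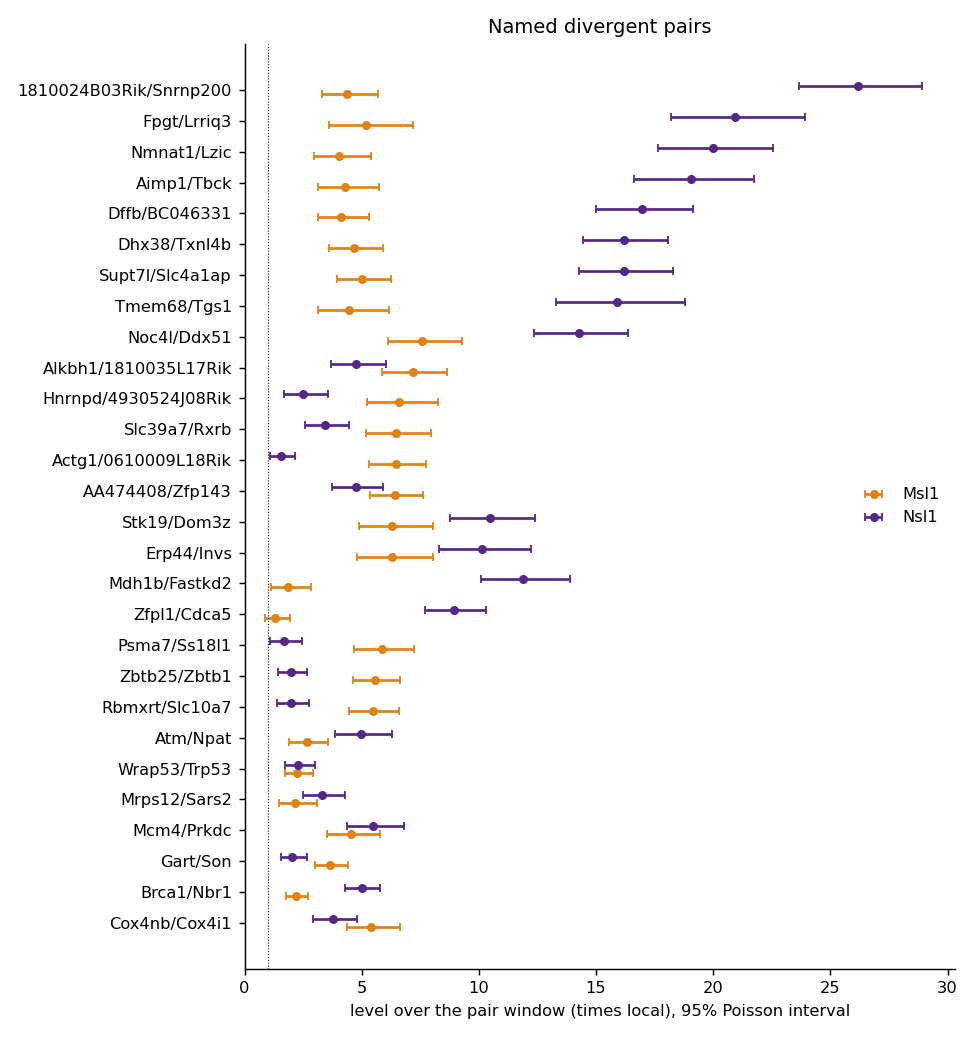
Level of Msl1 (orange) and Nsl1 (purple) over the pair window in times the local level, with 95% Poisson intervals, for 28 named pairs. From the top they are the highest for Nsl1, the highest for Msl1, the ends of the Msl1 to Nsl1 ratio and the well-known pairs. Nsl1 reached 26.2 at Snrnp200 and lay at 1.56 at Actg1, while no pair exceeded 7.58 for Msl1.

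Of 13 pairs widely used as examples of divergent promoters, 7 were among the pairs defined here and 6, Surf1/Surf2, Hspd1/Hspe1 and Col4a1/Col4a2 among them, were not. In each of the 6 the annotated 5′ ends of the genes overlap by up to 1000 bases. Mcm4, of the replicative helicase, and Prkdc, a kinase of DNA repair, had 68 Msl1 reads (4.54, 3.53 to 5.76) and 82 Nsl1 reads (5.49, 4.36 to 6.81). Brca1, a DNA repair gene, and Nbr1, an autophagy receptor, had 88 Msl1 reads (2.20, 1.76 to 2.71) and 185 Nsl1 reads (5.0, 4.30 to 5.77). Atm, the kinase of the response to DNA breaks, and Npat, a coactivator of histone genes, had 42 (2.65, 1.91 to 3.58) and 69 (4.98, 3.87 to 6.30). These 3 pairs were enriched for Nsl1 at both TSSs, and for Msl1 only Mcm4/Prkdc was.

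Cox4i1, a subunit of cytochrome c oxidase, and Cox4nb had 91 Msl1 reads (5.41, 4.36 to 6.64) and 67 Nsl1 reads (3.78, 2.93 to 4.80), with 8 GC boxes between them and 0 Msl1 and 2 Nsl1 reads there. Mrps12 and Sars2, for a mitochondrial ribosomal protein and the mitochondrial seryl-tRNA synthetase, had 31 (2.17, 1.47 to 3.07) and 56 (3.29, 2.48 to 4.27). Gart, of purine synthesis, and Son, a splicing cofactor, had 106 (3.65, 2.99 to 4.41) and 55 (2.05, 1.54 to 2.66), with both TSSs enriched for Msl1 and neither for Nsl1. Wrap53 and Trp53, the gene of the p53 tumour suppressor, had 60 (2.26, 1.72 to 2.91) and 54 (2.30, 1.73 to 3.0), and no TSS of this pair was enriched in either library.

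Genes whose annotated 5′ ends overlap by up to 1000 bases are close neighbours of the pairs and were set beside them after the values were seen. There were 318 such pairs, with 630 genes that were in no divergent pair, and 68.7% of these TSSs were rich. Their median Nsl1 level was 2.98 (2.77 to 3.34), below the 3.87 of divergent pairs, and their median Msl1 level was 3.02 (2.89 to 3.22), against 2.87. For each protein 337 of them (53.5%) were enriched, and 199 were enriched for both.

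Gene families were unevenly represented. Of all autosomal protein-coding genes 7.42% were in a pair, against 31 of 129 DNA repair and replication genes, 30 of 115 splicing genes, 22 of 101 respiratory chain genes, 18 of 77 mitochondrial ribosome genes, 8 of 34 tRNA synthetase genes, 7 of 51 proteasome genes and 10 of 76 cytosolic ribosome genes. Zinc finger genes named Zfp contributed 18 of 362, and keratins, olfactory receptors and other families of differentiated tissues 1 of 1708.

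Over all genes, 67.0% of paired and 19.8% of unpaired TSSs were enriched for Nsl1 and 50.1% and 20.05% for Msl1, against which the counts of each list stand. Nsl1 was enriched at 31 of 31 paired DNA repair and replication TSSs (median 5.79) and at 40 of 65 unpaired ones (median 3.57). The corresponding counts for Msl1 were 22 of 31 (3.17) and 23 of 65 (2.33). At splicing genes Nsl1 was enriched at 25 of 30 paired (5.02) and 45 of 66 unpaired TSSs (3.89), and Msl1 at 20 of 30 (3.62) and 39 of 66 (3.07). Respiratory chain genes had Nsl1 enriched at 19 of 22 paired (4.46) and 35 of 52 unpaired TSSs (3.69), and Msl1 at 14 (3.25) and 25 (2.82) of the same TSSs.

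In 4 other lists, with 7 to 18 paired TSSs each, either group could have the higher Nsl1 median. Mitochondrial ribosome genes had Nsl1 medians of 5.44 (17 of 18 enriched) at paired and 5.99 (31 of 37) at unpaired TSSs, tRNA synthetase genes 4.38 (7 of 8) and 5.22 (17 of 18), proteasome genes 5.16 (5 of 7) and 4.66 (22 of 29), and cytosolic ribosome genes 3.17 (6 of 10) and 3.58 (37 of 47). Their Msl1 medians were 3.20 (12 of 18) and 3.10 (19 of 37), 3.0 (4 of 8) and 2.56 (8 of 18), 3.21 (5 of 7) and 2.81 (14 of 29), and 3.73 (8 of 10) and 3.33 (31 of 47). The Nsl1 shares of the paired proteasome and cytosolic ribosome genes and the Msl1 share of the paired tRNA synthetase genes were near those of all paired TSSs, as far as 7 to 10 TSSs can show. In 3 of these 4 lists the unpaired TSSs had the higher Nsl1 median, a difference that has no test here. Zinc finger genes had Nsl1 medians of 3.84 (11 of 18) and 2.59 (126 of 284) and Msl1 medians of 3.51 (10 of 18) and 2.0 (54 of 283). Both shares of their paired TSSs were likewise near those of all paired TSSs. The paired gene of the tissue-specific list had levels of 1.41 for Nsl1 and 2.92 for Msl1 and was not enriched, and of its 1586 unpaired TSSs 12 were enriched for Nsl1 (median 1.20) and 10 for Msl1 (1.07).

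Core histone genes were the exception among the paired families. 27 of the 76 listed were in a pair, most of them an H2A gene beside an H2B gene, and 13 pairs held 2 histone genes. Although these 13 pairs had a median CpG ratio of 0.907 and 57.1% GC, their levels reached at most 1.77 for Msl1 and 1.95 for Nsl1, with medians of 1.09 and 1.33. 0 of the 27 TSSs were enriched for Msl1 and 1 for Nsl1, against 4 and 3 of 20 unpaired histone TSSs. The copies are nearly identical, and 2 of the pairs held 0 reads in both libraries, so that reads lost for lack of a unique position cannot be told apart from absent binding.

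The short motifs of the promoters, from 250 bases before to 50 bases after the TSS on both strands, were counted as a description. CCGGAAGT, the site of ETS factors, was in 13.2% of paired, 3.85% of unpaired and 4.85% of all promoters, and among rich TSSs in 14.2% (12.3 to 16.3) and 6.80% (6.15 to 7.49) of paired and unpaired ones. AAGATGGCG, the site of YY1, was in 5.35%, 1.37% and 1.85% of them, TGACGTCA, the cAMP response element, in 4.41%, 2.05% and 2.29%, and GCGCATGCG, the site of NRF1, in 4.91%, 1.86% and 2.13%. Among rich TSSs, AAGATGGCG was in 5.31% (4.09 to 6.75) of paired and 2.56% (2.16 to 3.01) of unpaired ones. For TGACGTCA these shares were 4.88% (3.72 to 6.28) and 3.58% (3.11 to 4.10), and for GCGCATGCG 5.22% (4.02 to 6.66) and 3.90% (3.41 to 4.44). The paired and unpaired intervals of TGACGTCA and of GCGCATGCG overlap. TATAAA was in 4.53% of paired, 15.3% of unpaired and 13.6% of all promoters, and among rich TSSs in 2.65% (1.81 to 3.75) of paired and 5.04% (4.48 to 5.65) of unpaired ones. GGGCGG was in 68.0%, 40.3% and 44.2%, yet among rich TSSs in 75.6% (73.0 to 78.0) of paired and 78.6% (77.5 to 79.7) of unpaired ones. CCAAT was in 42.6%, 37.2% and 37.5%, and CACGTG in 11.1%, 7.23% and 7.69%. In rich paired and unpaired TSSs CCAAT was in 42.8% (39.9 to 45.7) and 35.0% (33.7 to 36.2). For CACGTG these shares were 11.6% (9.86 to 13.6) and 11.2% (10.4 to 12.1), with intervals that overlap. Promoters of a close pair share bases, so a match can count for both genes.

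Among rich paired TSSs, those with CCGGAAGT had a median Nsl1 level of 5.75 (4.69 to 7.0) and those without it 3.93 (3.74 to 4.08), and among rich unpaired TSSs these were 4.42 (4.15 to 4.65) and 2.21 (2.17 to 2.25). Promoters with GGGCGG were lower than those without it, at 3.88 (3.66 to 4.07) against 4.90 (4.46 to 5.48) for paired and 2.22 (2.18 to 2.26) against 2.75 (2.62 to 2.90) for unpaired rich TSSs. Without the restriction to rich TSSs the unpaired promoters ran the other way, with 2.07 (2.03 to 2.11) with GGGCGG and 1.31 (1.30 to 1.33) without. Within promoters with and without either motif, paired TSSs had the higher median. For GCGCATGCG, paired rich TSSs with a match had 3.82 (3.42 to 4.31) and without it 4.10 (3.95 to 4.29), intervals that overlap, while unpaired rich TSSs had 3.52 (3.30 to 3.75) and 2.25 (2.21 to 2.30).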

How the data were processed

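ChIP-seq reads of Msl1 and Nsl1, 1 library each, came as aligned reads that the authors had mapped to mm9 and limited to uniquely placed reads. The submitters' processing notes name CASAVA 1.8.2 and Bowtie 0.12.7. The deposited files also carry a score per read, which is 255 on each line and was not used. No Input was analysed here. Reads that repeated a position and strand were counted once and moved to the middle of the fragment given by the cross-correlation between strands.

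TSSs came from GENCODE M1 (mm9), where the study used ENSEMBL 67. Promoter sequences of another build were not used. A window needed at least 100 reads in the local level from 5 to 50 kb, which left out 3 pairs per library, 517 TSSs for Msl1 and 479 for Nsl1. The libraries had about 34 Msl1 and 51 Nsl1 reads per paired TSS at the median, which sets the width of single-pair intervals. With 1 library per antibody no test was made. The counting was tested on simulated data.

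Named pairs were the 8 highest per library, the 4 highest and 4 lowest ratios of Msl1 to Nsl1 with at least 100 reads, the 4 most unequal per library and 13 well-known pairs, and 10 gene lists were taken by symbol. Members, rules and lists were chosen with earlier results of these data known. Alternatives changed the repeats kept, windows, local level, TSS choice, thresholds and composition. Counts were made with pandas 2.3.3 and numpy 2.4.6 and intervals with scipy 1.17.1, under Python 3.11.15.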

Additional observations from a re-analysis of the deposited data

How the results depend on the processing

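Each antibody had 1 library, so no replicate could be left out. No paired analysis was possible because the libraries are 1 per antibody and share no replicate but that number. With 250 bases on each side, the paired over unpaired median was 1.40 for Msl1 and 2.64 for Nsl1, Msl1 enrichment 19.8% of paired and 11.2% of unpaired TSSs, Nsl1 enrichment 20.7% of unpaired TSSs, the closest over farthest distance class 2.43 for Nsl1 and the median Msl1 to Nsl1 ratio 0.612. With 1000 bases on each side, paired TSSs were enriched in 58.7% for Msl1 and 57.9% for Nsl1, unpaired TSSs in 13.6% for Nsl1, the Nsl1 median ratio was 1.96, the Nsl1 distance ratio 1.42 and the Msl1 to Nsl1 ratio 1.18. Against the level of the whole library, the paired over unpaired medians were 2.0 and 2.68 for Msl1 and Nsl1, the downstream ones 1.89 and 1.72, and 77.4% and 79.3% of paired and 35.4% and 27.3% of unpaired TSSs were enriched. Enrichment above 1.5 times called 68.5% of paired and 32.4% of unpaired TSSs for Msl1 and 78.5% and 28.9% for Nsl1, and above 3 times 17.9% and 6.48% for Msl1 and 47.4% and 10.9% for Nsl1. Unpaired TSSs set by protein-coding TSSs alone were enriched in 21.1% for Msl1 and 20.9% for Nsl1. With all nuclear reads kept, 21.7% of unpaired TSSs were enriched and 48.3% of pairs unequal for Msl1, and Nsl1 between the TSSs was 4.63. With the outermost TSS of each gene it was 4.37. Sides of 0 to 500 bases were unequal in 35.6% for Msl1, and sides of 200 to 2000 bases in 47.1% for Msl1 and 23.6% for Nsl1.

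In pairs at least 200 bases apart the paired over unpaired medians were 1.45 for Msl1 and 1.96 for Nsl1, and the downstream one 1.36 for Nsl1. Among rich TSSs the medians were 1.12 and 1.78, enrichment 60.0% and 46.3% for Msl1 and 72.8% and 36.3% for Nsl1, the downstream Nsl1 ratio was 1.33, and the downstream Msl1 ratio turned from 1.5 to 0.868. The last 2 were added after the data were seen. The cause of these shifts was not tested. Of 97 values under alternatives, 48 moved by less than their interval, 48 moved by more and 1 reversed. The depth sets the width of single-pair intervals, and no Input was used.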
